A study of Mus musculus with 4 samples.

Results

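miR-146a-5p and miR-146b-5p are the mature microRNAs (miRNAs) of the miR-146 family, short RNAs that guide Argonaute proteins to partly complementary messenger RNAs. They were chosen by name, with earlier results of these data known, and are 2 of the 1078 mature miRNAs in the deposited table. The rule itself used no measured value. Because the pair share 20 of 22 bases, each was followed in the deposited values and again in a recount of the deposited reads that tells them apart by the base at position 18.

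Small RNA of 4 cell populations of C57BL/6J mice was read on a Solexa sequencer, with 1 library per population. Haematopoietic stem cells (HSC) were a sorted c-Kit+ Sca1+ Lineage- fraction of bone marrow. Immature dendritic cells (imDC) came from bone marrow of mice aged 5 to 6 weeks, collected at day 6 from culture in GM-CSF at 10 ng/mL plus IL-4 at 1 ng/mL. Mature dendritic cells (maDC) came from mice of the same age and had the same cytokines. They were freed of nonadherent cells at day 4, then received 10 ng/mL LPS, a ligand of Toll-like receptor (TLR) 4, and were purified on CD11c beads on day 8. To make regulatory dendritic cells (DCreg), such maDC spent at least 7 days on endothelial-like splenic stromal cells and were again taken on CD11c beads, so they carry the earlier cytokine and LPS exposure. The mice for DCreg were also aged 5 to 6 weeks. No bead selection is described for imDC. LPS, culture time, the wash and the beads therefore cannot be told apart between maDC and imDC. Since each population has 1 library, no difference has a replicate check and no p-value is given.

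The miR-146 family is known as a brake on innate signalling. NF-kB, switched on by TLR ligands and cytokines, drives transcription of miR-146a. The miRNA in turn lowers IRAK1 and TRAF6, proteins that carry the signal from TLRs to NF-kB. miR-146b is made from another chromosome and shares the seed, the stretch near the 5' end that pairs with targets. In dendritic cells and macrophages the family is linked to tolerance of repeated LPS.

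The mature sequences from RefSeq (GRCm38.p6) are shown first with the seed, bases 2 to 8, in capitals, because it is the part by which targets are chosen and it is the same in both. No other of the 1078 miRNAs in the table has these bases 2 to 8.
miR-146a-5p: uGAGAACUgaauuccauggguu
miR-146b-5p: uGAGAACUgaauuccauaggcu
The same sequences are repeated with the bases that differ in capitals, because the recount rests on them. Counted from 1 at the 5' end, miR-146b-5p differs from miR-146a-5p by G18A and U21C, and the first 17 bases are identical.
miR-146a-5p: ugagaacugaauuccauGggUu
miR-146b-5p: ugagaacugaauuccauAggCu

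The hairpins from which they are cut are shown with the mature arm in capitals, because the bases just after it are those that a longer read would carry. These are AU for miR-146a-5p and GU for miR-146b-5p.
Mir146: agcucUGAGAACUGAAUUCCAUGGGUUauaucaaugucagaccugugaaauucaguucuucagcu
Mir146b: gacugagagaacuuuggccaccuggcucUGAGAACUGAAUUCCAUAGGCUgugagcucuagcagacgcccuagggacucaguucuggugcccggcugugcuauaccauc
The Mir146 hairpin is 65 nt long and lies on the minus strand at chr11:43374397-43374461 (GRCm38), with the mature arm at chr11:43374435-43374456. It overlaps no gene of the GENCODE annotation other than its own; the nearest is the lincRNA Gm12148, 11021 bp away, and the nearest protein-coding gene is Pttg1. The Mir146b hairpin is 109 nt long and lies on the plus strand at chr19:46342762-46342870, with the mature arm at chr19:46342790-46342811. It sits in the intron after exon 1 of 9 of Mfsd13a, a protein-coding gene on the same strand (chr19:46341121-46375252).

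The unique-sequence lists hold between 4904897 reads (DCreg) and 6572858 reads (maDC), of which 80.2% to 84.0% were assigned to a mature miRNA, and the deposited values sum to between 2725948 (DCreg) and 5251069 (imDC). Both kinds of value are given in parts per 1000000 (ppm) of the library's own total. Intervals are exact 95% intervals for counting error only, since amplified reads carry no molecular identifiers and may repeat a molecule. The listed marker miRNAs of several cell types differed in level between the libraries. The 3 erythroid markers in the table (of 4 listed) summed to 13763 ppm in HSC, against 19.0 ppm in imDC, 1.56 ppm in maDC and 2.20 ppm in DCreg. The 2 endothelial markers summed to 121 ppm (HSC), 8.00 ppm (imDC), 2.46 ppm (maDC) and 1.47 ppm (DCreg). The 4 stromal markers summed to 1076 ppm in HSC and 61.1 ppm in imDC, then 177 ppm in maDC and 254 ppm in DCreg. They did not move together from maDC to DCreg. miR-143-3p went from 40.9 ppm to 155 ppm and miR-145-5p from 2.68 ppm to 9.90 ppm, whereas miR-199a-3p went from 120 ppm to 79.6 ppm and miR-214-3p from 13.6 ppm to 9.54 ppm. The myeloid pair miR-223-3p and miR-223-5p summed to 4140 ppm, 3056 ppm, 963 ppm and 727 ppm in the same order, and the 3 lymphoid markers to 9767 ppm, 5756 ppm, 4353 ppm and 3357 ppm. Members of these lists also differed. From HSC to imDC miR-223-3p went from 3438 ppm to 2264 ppm, but miR-223-5p from 702 ppm to 791 ppm. In the same step the lymphoid miR-150-5p went from 914 ppm to 17.1 ppm and miR-181a-5p from 6783 ppm to 3926 ppm. The lymphoid miR-342-3p stayed between 1814 ppm (imDC) and 2098 ppm (maDC). The haematopoietic pair miR-142-3p and miR-142-5p summed to between 9471 ppm (DCreg) and 20092 ppm (HSC), and the 3 stem and progenitor markers to between 595 ppm (imDC) and 2620 ppm (HSC). No listed marker in the table was at 0 in any library by the deposited values, and by the recount the erythroid miR-144-3p and miR-451 had 0 reads in maDC. The part of cell composition in the results below was not tested, and in bulk libraries fewer cells of a type and less RNA per cell cannot be told apart.

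miR-146b-5p was among the abundant miRNAs of all 3 dendritic cell libraries and much lower in HSC. By the deposited values it stood at 6182 ppm (HSC), 89225 ppm (imDC), 67585 ppm (maDC) and 36546 ppm (DCreg). That placed it 29th among the miRNAs of HSC, 2nd in imDC, 6th in maDC and 9th in DCreg; by recounted reads it was 46th, 12th, 13th and 12th in the same order. The recount found 8836 reads in HSC and 152209 in imDC, then 81694 in maDC and 43538 in DCreg that carry its base at position 18. Per 1000000 recounted miRNA reads these were 1700 ppm in HSC (interval 1665 to 1736) and 28888 ppm in imDC (28743 to 29034), then 14790 ppm in maDC (14689 to 14892) and 11071 ppm in DCreg (10967 to 11176). The order of the libraries was the same in both measures, imDC first, then maDC, DCreg and HSC, and no neighbours overlapped in counting error.

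miR-146a-5p, the member whose gene is the textbook NF-kB target, ran at a much lower level and in another order. Its deposited level was 1561 ppm in HSC and 1105 ppm in imDC, then 309 ppm in maDC and 1115 ppm in DCreg, or 56th, 58th, 87th and 54th in rank. Reads with its base at position 18 numbered 5264 (HSC), 4917 (imDC), 1180 (maDC) and 2649 (DCreg). On the recounted scale these were 1013 ppm in HSC (986 to 1040) and 933 ppm in imDC (907 to 960), then 214 ppm in maDC (202 to 226) and 674 ppm in DCreg (648 to 700). HSC was highest and maDC lowest on both scales. The deposited values of imDC and DCreg lay side by side, whereas the recount put imDC above DCreg.

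**Figure D1:**
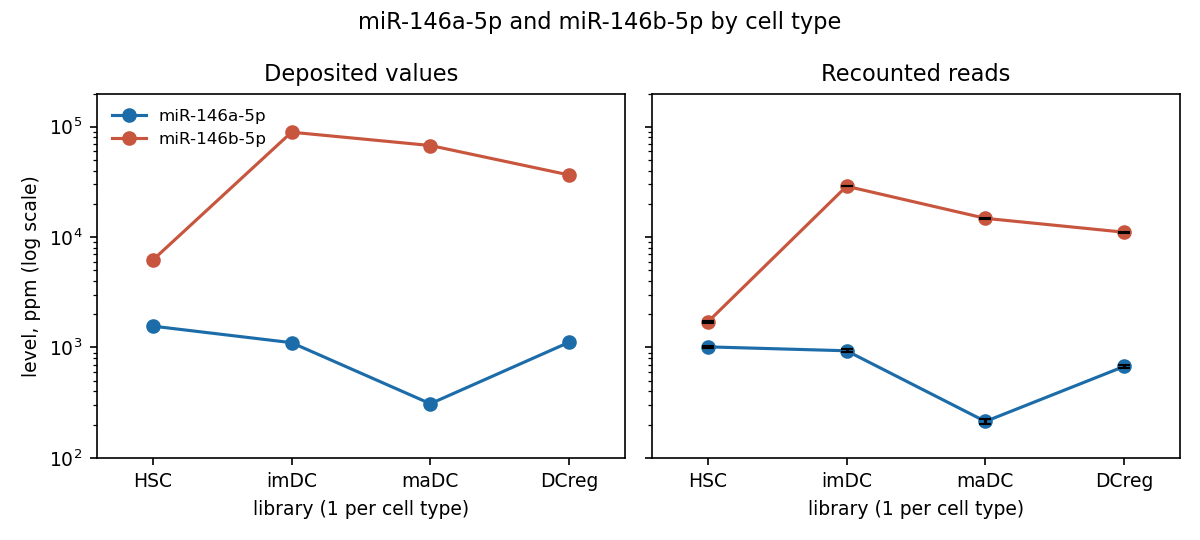
Level of miR-146a-5p (blue) and miR-146b-5p (red) in the 4 libraries on a log scale, in ppm of the deposited total (left) and of recounted miRNA reads (right); black bars are exact 95% counting intervals, mostly smaller than the points. miR-146b-5p peaks in imDC, at 89225 ppm deposited and 28888 ppm recounted, while miR-146a-5p is lowest in maDC, at 309 ppm and 214 ppm.

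The balance of the pair therefore shifted between the libraries. Of all family reads, miR-146a-5p made up 37.3% in HSC (exact binomial interval 36.5% to 38.1%) and 3.13% in imDC (3.04% to 3.22%), then 1.42% in maDC (1.34% to 1.51%) and 5.74% in DCreg (5.53% to 5.95%). For each read of miR-146a-5p there were 1.68 reads of miR-146b-5p in HSC (exact conditional interval 1.62 to 1.74) and 31.0 in imDC (30.1 to 31.9). In maDC the ratio reached 69.2 (65.4 to 73.4), and in DCreg it was 16.4 (15.8 to 17.1). The library with the highest ratio, maDC, was the one with the least miR-146a-5p, whereas miR-146b-5p itself was highest in imDC. When the deposited values were used, the ratio was 3.96 in HSC and 80.7 in imDC, then 219 in maDC and 32.8 in DCreg, higher in every library and in the same order. With no unmatched 3' bases allowed it was 0.951 (HSC), 13.3 (imDC), 14.0 (maDC) and 3.87 (DCreg). miR-146a-5p was then the more frequent in HSC, and the ratios of imDC and maDC lay close together. Unmatched here means past the annotated sequence, so this alternative also drops reads that continue along the hairpin. Those include the leading form of miR-146b-5p.

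The measures lay further apart for miR-146b-5p than for miR-146a-5p. Its deposited value was 2.96 per recounted read in HSC and 3.08 in imDC, then 3.70 in maDC and 2.29 in DCreg. That ranked it 4th of 205 miRNAs with at least 100 reads in HSC, 2nd of 218 in imDC, 2nd of 167 in maDC and 3rd of 137 in DCreg, where the medians were 1.41, 1.32, 1.36 and 1.21. The same quotient for miR-146a-5p was 1.25 (HSC), 1.18 (imDC), 1.17 (maDC) and 1.15 (DCreg), below the median in each library. How the authors' matching or normalisation gave these quotients was not tested. The absolute share of miR-146b-5p depended on the measure. Its order over the libraries was the same by the deposited and the recounted totals, but some other scalings, given below, put maDC above imDC.

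**Figure D2:**
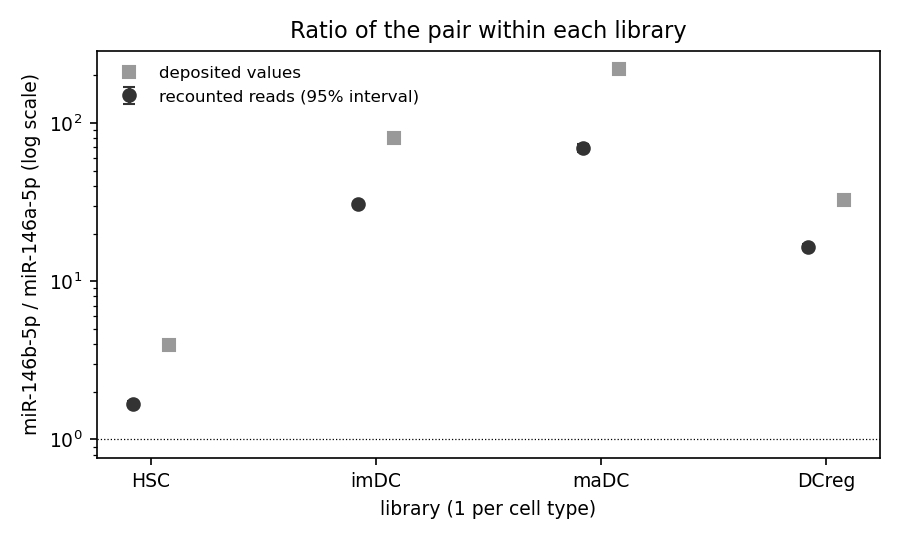
Ratio of miR-146b-5p to miR-146a-5p within each library, on a log scale, from recounted reads (black circles, with exact conditional 95% intervals that are mostly smaller than the points) and from the deposited values (grey squares); the dotted line marks a ratio of 1. The recounted ratio is 1.68 in HSC and 31.0 in imDC, then 69.2 in maDC and 16.4 in DCreg, and the deposited ratio is higher in every library.

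How far the pair could be mistaken for each other was read from the second differing base. Reads with the miR-146a-5p base at position 18 and the miR-146b-5p base at position 21 numbered 21 (HSC), 145 (imDC), 66 (maDC) and 36 (DCreg). As a share of all reads with G at position 18 they were 0.399% in HSC and 2.94% in imDC, then 5.53% in maDC (4.30% to 6.98%) and 1.36% in DCreg. The share was highest in the library with the highest miR-146b-5p to miR-146a-5p ratio. The opposite mixture, A at position 18 with U at position 21, numbered 12 reads (HSC), 150 (imDC), 105 (maDC) and 32 (DCreg). Requiring both bases left 1076 reads of miR-146a-5p in maDC, against 1180 with position 18 alone, and raised the ratio there to 75.5. Reads that ended exactly at the last shared base and could be given to neither numbered 2 in HSC and 7 in imDC, then 7 in maDC and 2 in DCreg. Reads that ended earlier are not in these numbers. The longest-match recount, which divides reads that match both equally, gave miR-146a-5p 5272 (HSC), 5026 (imDC), 1232 (maDC) and 2699.5 (DCreg). By position 18 alone it had 5264, 4917, 1180 and 2649.

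Since the seed is shared, the levels of the pair were also summed. The family summed to 2713 ppm of recounted reads in HSC, 29822 ppm in imDC, 15003 ppm in maDC and 11745 ppm in DCreg. It was 11.0-fold higher in imDC than in HSC (interval 10.8 to 11.2), and the maDC over imDC ratio was 0.503 (0.499 to 0.507). In the family sum the DCreg over maDC ratio was 0.783 (0.774 to 0.792). By the deposited values the sum was 7743 ppm (HSC), 90330 ppm (imDC), 67894 ppm (maDC) and 37661 ppm (DCreg), and the maDC over imDC ratio was 0.752 and the DCreg over maDC ratio 0.555. Which of these steps had the larger drop therefore depended on the measure. The sum followed miR-146b-5p in all 3 dendritic cell libraries, where miR-146a-5p gave at most 5.74% of the reads.

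Among 187 miRNAs tested in imDC against HSC, 26.2% had a level at least 2-fold higher in imDC and 28.3% a level at least 2-fold lower. A miRNA was called when it differed at least 2-fold, with 0.5 added to the deposited values, and reached 100 ppm in 1 of the 2 libraries. miR-146b-5p had 89225 ppm in imDC and 6182 ppm in HSC and was called, 14.4-fold higher (recount 16.99-fold, 16.6 to 17.4). That was the 10th largest increase of the 187. miR-146a-5p had 1105 ppm in imDC and 1561 ppm in HSC and was not called, with a ratio of 0.708 (recount 0.922, 0.886 to 0.958). Relative to the median of all tested miRNAs the log2 ratio was 3.97 for miR-146b-5p and -0.38 for miR-146a-5p. The trimmed mean of M-values (TMM) turned the split over all miRNAs from 49 higher and 53 lower to 62 and 40, scaling to all reads gave 63 and 39, and the recount 54 and 27. Neither member's call changed under these.

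maDC, grown with LPS, were next set against imDC. Among 160 miRNAs tested, 9.38% were called higher in maDC and 45.0% lower, so most of the calls were decreases. miR-146a-5p had 309 ppm in maDC and 1105 ppm in imDC and was called, 3.57-fold lower (recount 4.37-fold, 4.10 to 4.66). Its log2 ratio was -1.84, and the median of all tested miRNAs was -0.88. miR-146b-5p had 67585 ppm in maDC and 89225 ppm in imDC and was not called, with a ratio of 0.757 (recount 0.512, 0.508 to 0.516). Relative to that median it stood 0.48 higher, and its direction turned with the scaling: the log2 ratio was -0.40 by the column total, 0.15 by TMM and 0.30 by median-of-ratios size factors. The same scalings gave 27 higher and 46 lower calls over all miRNAs by TMM and 30 and 37 by median-of-ratios, and the recount 2 and 78, against 15 and 72 in the main analysis.

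DCreg were set against the maDC they were made from. Stroma, at least 7 further days of culture and a second bead selection cannot be told apart in this comparison. Here 20.3% of 138 miRNAs were called higher in DCreg and 28.3% lower. miR-146a-5p had 1115 ppm in DCreg and 309 ppm in maDC and was called, 3.61-fold higher (recount 3.15-fold, 2.94 to 3.38), the 15th largest increase of the 138. Both this call and that of maDC against imDC rest on the same maDC library. miR-146b-5p had 36546 ppm in DCreg and 67585 ppm in maDC, a ratio of 0.541 (recount 0.749, 0.740 to 0.757), and was not called. The log2 ratio relative to the median of all tested miRNAs was 2.19 for miR-146a-5p and -0.55 for miR-146b-5p. The ratio of miR-146b-5p to miR-146a-5p in reads was accordingly 16.4 in DCreg and 69.2 in maDC, a quotient of 0.237. With all reads as the total miR-146b-5p was called lower, at a log2 ratio of -1.18.

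DCreg were also set directly against imDC. Of 168 miRNAs tested, 16.1% were called higher in DCreg and 56.0% lower. miR-146b-5p had 36546 ppm in DCreg and 89225 ppm in imDC and was called, 2.44-fold lower (recount 2.61-fold, 2.58 to 2.64). Its log2 ratio was -1.29, and the median over all tested miRNAs was -1.25, so the decrease lay at the middle of the tested miRNAs. TMM and median-of-ratios scaling ended this call, with log2 ratios of -0.63 and -0.57; over all miRNAs they gave 33 higher and 65 lower calls and 34 and 65, against 27 and 94. miR-146a-5p had 1115 ppm in DCreg and 1105 ppm in imDC, a ratio of 1.01 that was not called, and the recount gave 0.722 (0.688 to 0.757). Its log2 ratio was 0.01 by the column total, 0.67 by TMM and -0.51 with all reads as the total. Relative to the median of all tested miRNAs its log2 ratio was 1.27, while that of miR-146b-5p was -0.04.

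maDC and DCreg were also set against HSC, whose library is shared by these comparisons and by the first. Of 180 miRNAs tested in maDC against HSC, 21.7% were called higher in maDC and 48.9% lower. miR-146b-5p was 10.9-fold higher in maDC (recount 8.70-fold, 8.51 to 8.89), the 14th largest increase of the 180. miR-146a-5p was 5.05-fold lower in maDC (recount 4.74-fold, 4.45 to 5.05). This was the comparison in which both members were called, in opposite directions. TMM gave 50 higher and 69 lower calls over all miRNAs, against 39 and 88 in the main analysis.

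Of 175 miRNAs tested in DCreg against HSC, 19.4% were called higher in DCreg and 56.0% lower. miR-146b-5p was 5.91-fold higher in DCreg (recount 6.51-fold, 6.37 to 6.66), the 15th largest increase of the 175. miR-146a-5p had a ratio of 0.714 (recount 0.665, 0.635 to 0.697) and was not called. Relative to the median over all tested miRNAs, which was -1.43, miR-146a-5p stood 0.95 higher. Its log2 ratio of -0.49 became 0.38 by TMM and 0.14 by median-of-ratios size factors, so its direction depended on the scaling. Over all miRNAs these gave 47 higher and 73 lower calls and 45 and 77, against 34 and 98.

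The reads also showed how each miRNA ends. Both started where annotated: 99.1% to 99.4% of miR-146a-5p reads and 99.8% to 99.9% of miR-146b-5p reads began at the annotated 5' base, so the seed is the one shown above. The 3' ends differed. The commonest reads are shown because the leading form of miR-146b-5p is not the annotated one; capitals mark bases past the annotated end, written in the DNA letters of the read lists. The first line of each miRNA is the annotated form, the form ending in A (miR-146a-5p) or in G or GT (miR-146b-5p) continues along the hairpin, and those ending in T, GG or GA carry a base that the hairpin does not have there.
miR-146a-5p, annotated: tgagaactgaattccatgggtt
miR-146a-5p, longer by A: tgagaactgaattccatgggttA
miR-146a-5p, longer by T: tgagaactgaattccatgggttT
miR-146b-5p, annotated: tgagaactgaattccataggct
miR-146b-5p, longer by G: tgagaactgaattccataggctG
miR-146b-5p, longer by GT: tgagaactgaattccataggctGT
miR-146b-5p, longer by GG: tgagaactgaattccataggctGG
miR-146b-5p, longer by GA: tgagaactgaattccataggctGA

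miR-146b-5p was mostly 24 nt long, 2 more than annotated. The 24 nt length held 64.5% of its reads in HSC and 66.9% in imDC, then 75.6% in maDC and 67.3% in DCreg. The form longer by GT was the commonest in every library, with 39.4% of the reads in HSC and 40.5% in imDC, then 49.6% in maDC and 41.6% in DCreg. The annotated form held 18.1% in HSC and 15.98% in imDC but 6.62% in maDC (interval 6.45% to 6.79%) and 8.32% in DCreg. Reads at least 2 nt longer than annotated made up 69.8% (HSC), 73.8% (imDC), 85.7% (maDC) and 74.2% (DCreg). This share was ranked among miRNAs matched by name to a RefSeq hairpin that had at least 1000 reads. Only reads placed on 1 miRNA and starting at its annotated 5' end were counted for this. The ranked miRNAs numbered 74 in HSC and 82 in imDC, then 62 in maDC and 52 in DCreg. Some abundant miRNAs, such as miR-21-5p with 577723 recounted reads in imDC, were not among them. The share of miR-146b-5p was the highest in HSC, imDC and DCreg. In maDC it was the 2nd, after miR-222-3p at 87.9%. The medians over the ranked miRNAs were 2.21% (HSC), 3.52% (imDC), 4.32% (maDC) and 2.21% (DCreg).

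The form longer by GG, whose last base the hairpin does not encode, came next in each library. It held 19.3% of miR-146b-5p reads in HSC and 21.5% in imDC, then 15.1% in maDC and 14.0% in DCreg. All unmatched tails that start with G together made up 22.3% in HSC (21.5% to 23.2%) and 24.9% in imDC (24.6% to 25.1%), then 18.8% in maDC (18.6% to 19.1%) and 17.1% in DCreg. That was the highest share among the ranked miRNAs in each of the 4 libraries. The medians were 0.54% (HSC), 0.76% (imDC), 0.86% (maDC) and 1.01% (DCreg). let-7e-5p came 2nd, with 20.6% in HSC and 14.2% in imDC, then 6.23% in maDC and 8.86% in DCreg. Tails that start with A, in contrast, were more frequent in maDC and DCreg. They made up 10.1% of miR-146b-5p reads in HSC and 9.35% in imDC, then 19.6% in maDC and 21.4% in DCreg. Pooled over the ranked miRNAs, the share with such a tail was 9.94% (HSC), 11.6% (imDC), 12.1% (maDC) and 10.1% (DCreg). The origin of the tails was not tested.

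miR-146a-5p ended differently. Its commonest length was 23 nt in each library, from 36.9% of reads in maDC to 46.1% in HSC. The annotated form was the leading one, with 27.5% in HSC and 35.9% in imDC, then 31.4% in maDC and 32.4% in DCreg. The form longer by A, which the hairpin encodes, held 20.7%, 25.7%, 19.5% and 17.6% in the same order. The form longer by T, an added U that the hairpin lacks, held 17.2% (HSC), 10.1% (imDC), 12.0% (maDC) and 13.9% (DCreg). All tails that start with U came to 21.8% in HSC and 13.4% in imDC, then 17.7% in maDC and 19.0% in DCreg. The medians over the ranked miRNAs were 4.80%, 3.20%, 5.16% and 4.60% in the same order. For miR-146b-5p the same tails came to no more than 2.74% in any library. Tails that start with G stayed at or below 3.13% of miR-146a-5p reads, and those that start with C include the mixed reads with C at position 21.

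**Figure D3:**
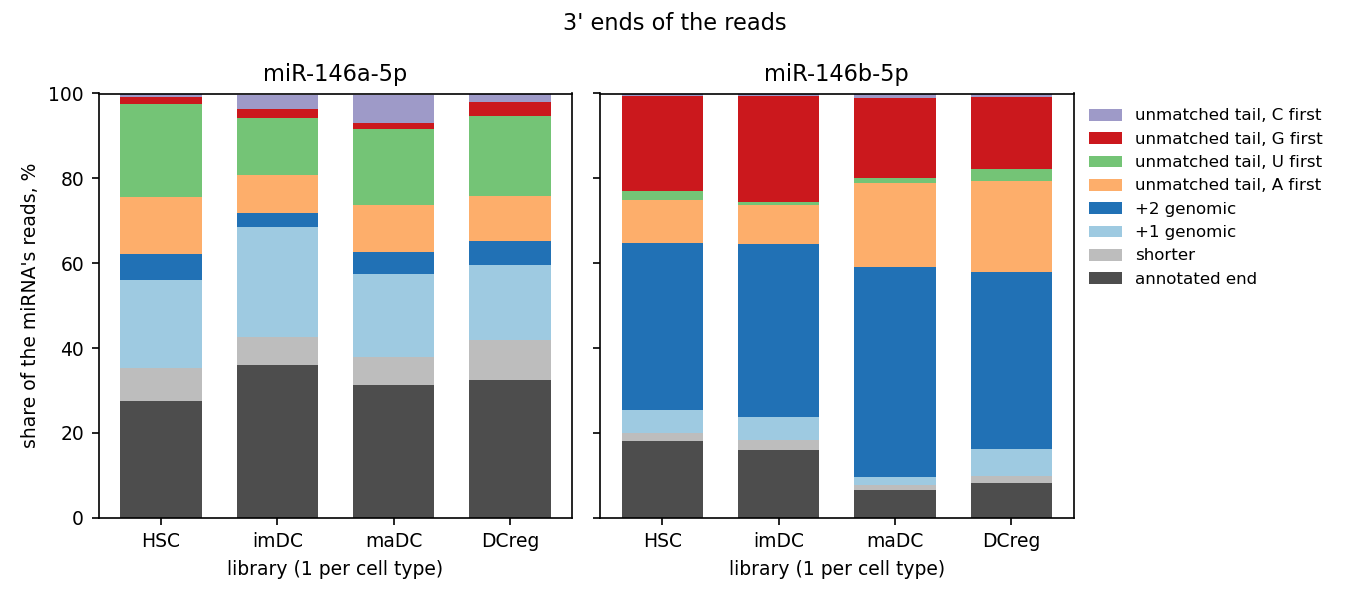
Share of each miRNA's reads (%) by 3' end, one bar per library: annotated end, shorter, longer by 1 or 2 bases that match the hairpin, and unmatched tails by their first base. The G class takes 17.1% to 24.9% of miR-146b-5p and 1.53% to 3.13% of miR-146a-5p, whereas the U class takes 13.4% to 21.8% of miR-146a-5p.

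**Figure D4:**
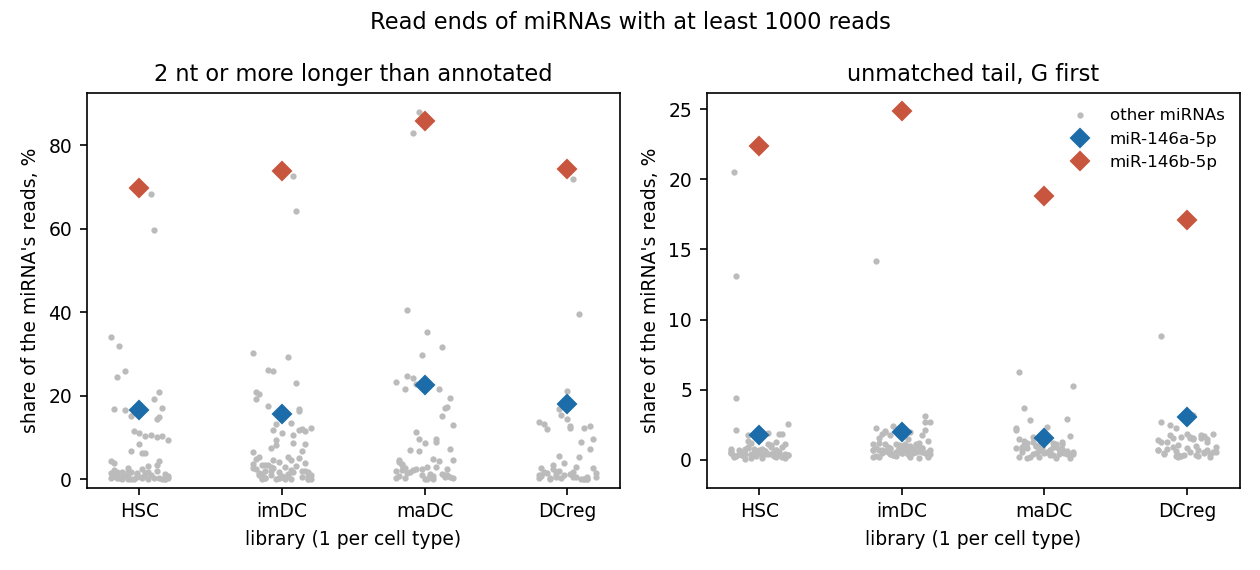
Share of reads (%) at least 2 nt longer than annotated (left) and with an unmatched tail that starts with G (right). Grey points are miRNAs matched to a RefSeq hairpin, with at least 1000 reads from the annotated 5' end in a library. miR-146a-5p is blue and miR-146b-5p red, and sideways scatter has no meaning. miR-146b-5p leads in 7 of the 8 columns and is 2nd in the maDC column on the left, at 85.7%.

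The other arms of the hairpins were rare. miR-146b-3p had a deposited value of 3 (HSC), 102 (imDC), 24 (maDC) and 8 (DCreg), and 1, 81, 14 and 4 recounted reads in the same order. For each of its reads there were 1879 reads of miR-146b-5p in imDC (interval 1512 to 2366), 5835 in maDC (3478 to 10674) and 10885 in DCreg (4251 to 39950). The RefSeq sequence of miR-146a-3p matched 0 reads in every library. Against a floor of 3 reads, miR-146a-5p was at least 1755-fold higher than its other arm in HSC, 1639-fold in imDC, 393-fold in maDC and 883-fold in DCreg.

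The pair belong to a wider set of miRNAs tied to TLR and NF-kB signalling, of which 16 others were listed, with earlier results of these data known. In imDC against HSC 11 of the 16 were tested; 7 of these passed the minimum of 100 ppm only through imDC, where they were high, so they could hardly be called otherwise than higher. Among them miR-155-5p, a promoter of inflammatory activation, had 2609 ppm in imDC and 47.6 ppm in HSC, 54.9-fold higher. The 4 that reached the minimum in both libraries were miR-21-5p, miR-221-3p, miR-222-3p and let-7e-5p. miR-21-5p had 140653 ppm in imDC and 19982 ppm in HSC, 7.04-fold higher. miR-222-3p was 3.44-fold and miR-221-3p 2.77-fold higher in imDC, and let-7e-5p, with a ratio of 1.93, was called only by TMM, the recount and scalings that leave out the 5 most abundant miRNAs or use all reads. The ratio of miR-146a-5p, 0.708, was below those of these 4, and that of miR-146b-5p, 14.4, was above them.

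In maDC against imDC all 11 tested list members reached the minimum in both libraries. Of them 1 was called higher and 1 lower, against 9.38% and 45.0% over all miRNAs, and the recount called 1 higher and 3 lower. let-7e-5p had 26478 ppm in maDC and 6943 ppm in imDC, 3.81-fold higher, and miR-9-5p, induced by NF-kB in myeloid cells, had 156 ppm in maDC and 739 ppm in imDC, 4.76-fold lower. Over these 11 the median log2 ratio was -0.29, against -0.88 over all tested miRNAs. By TMM these medians were 0.27 and -0.33, by median-of-ratios 0.42 and -0.18, and by the recount -0.65 and -1.28. miR-155-5p had 1651 ppm in maDC and 2609 ppm in imDC and was not called. miR-146a-5p, 3.57-fold lower in maDC, thus stood with miR-9-5p at the low end.

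In DCreg against maDC 12 list members were tested, of which 6 passed the minimum only through maDC and 1, miR-125b-5p, only through DCreg; their direction is largely set by that. miR-125b-5p had 363 ppm in DCreg and 16.1 ppm in maDC, 22.6-fold higher. miR-147-3p, which TLR ligands induce in macrophages, had 82.2 ppm in DCreg and 589 ppm in maDC, 7.17-fold lower. Of the 5 at the minimum in both libraries, miR-155-5p had 141 ppm in DCreg and 1651 ppm in maDC, 11.7-fold lower. miR-222-3p was 3.44-fold and miR-221-3p 2.29-fold lower in DCreg. miR-21-5p, with a ratio of 0.862, and let-7e-5p, with a ratio of 1.94, were not called, although TMM and the recount called let-7e-5p higher. The ratio of miR-146a-5p, 3.61, was above those of these 5, and that of miR-146b-5p, 0.541, lay between them.

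The remaining comparisons share libraries with those above. For DCreg against imDC 9 of 12 tested members were called lower and 2 higher, against 56.0% and 16.1% over all miRNAs, and 7 of the 12 reached the minimum in only 1 of the libraries. In maDC against HSC 7 of 11 tested members passed only through maDC, and all 11 were called higher, against 21.7% over all miRNAs. For DCreg against HSC 6 of the 16 were tested, 2 of them through DCreg only; 4 were called higher and none lower, against 19.4% and 56.0% over all miRNAs, and the recount called 3 of 5 higher. Because of the minimum and the choice of the list, nothing is read from these counts.

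**Figure D5:**
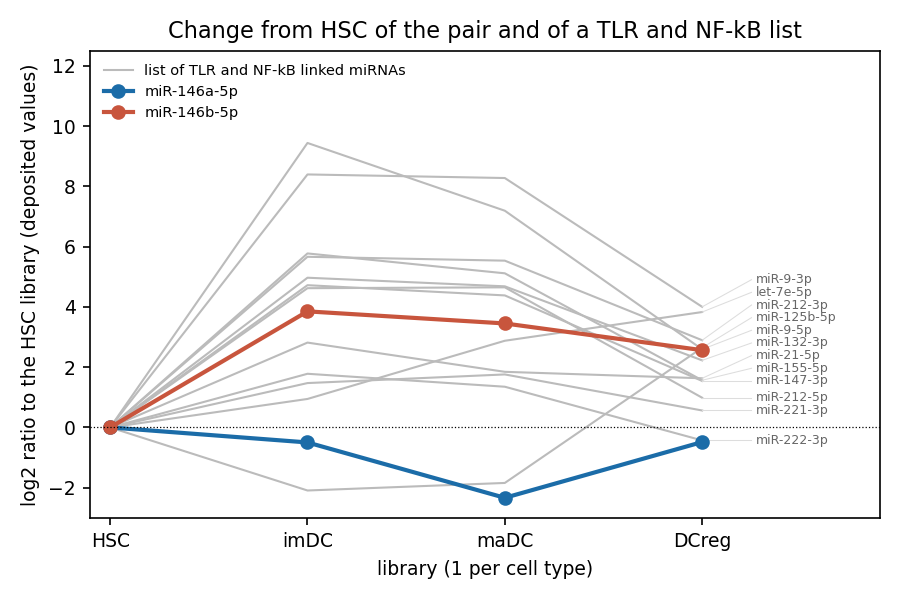
Log2 ratio of each library to HSC by the deposited values for miR-146a-5p (blue), miR-146b-5p (red) and the listed TLR and NF-kB miRNAs that reach 100 ppm in at least 1 library (grey, named at the right). miR-146b-5p goes to 3.85 in imDC, 3.45 in maDC and 2.56 in DCreg, while miR-146a-5p goes to -0.50, -2.34 and -0.49.

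The miRNAs with the most similar course were sought among 197 that reach 100 ppm in at least 1 library, by the root mean square difference of centred log2 levels over the 4 libraries. Nearest to miR-146a-5p were miR-3968 (0.39), miR-322-5p (0.41), miR-26a-5p (0.52), miR-30d-5p (0.54) and miR-23a-5p (0.54). miR-3968 had deposited values of 161 ppm in HSC and 157 ppm in imDC, then 67.7 ppm in maDC and 164 ppm in DCreg, but the recount gave it 0 reads in every library. miR-322-5p had 786 ppm (HSC), 409 ppm (imDC), 73.7 ppm (maDC) and 495 ppm (DCreg). Each of these 5 was lowest in maDC, as miR-146a-5p was.

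Nearest to miR-146b-5p were miR-365-2-5p (0.36), miR-1956 (0.42), miR-674-5p (0.53), miR-210-3p (0.55) and miR-21-5p (0.58). miR-21-5p, an abundant miRNA of activated myeloid cells, had 19982 ppm in HSC and 140653 ppm in imDC, then 71808 ppm in maDC and 61873 ppm in DCreg. miR-210-3p, known for its induction by hypoxia, had 150 ppm (HSC), 4955 ppm (imDC), 2630 ppm (maDC) and 2410 ppm (DCreg). miR-365-2-5p and miR-1956 were near the minimum, at no more than 122 ppm in any library. The members were far from each other: at a difference of 2.14, miR-146b-5p ranked 164th from miR-146a-5p and miR-146a-5p ranked 121st from miR-146b-5p. These distances rest on 4 libraries that all miRNAs share and describe only the course of the levels.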

How the data were processed

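The series table holds a score per mature miRNA and hairpin, deposited by the authors as whole numbers under a header that speaks of normalised counts; how the normalisation was done is not stated. Each library also has a list of unique sequences with copy numbers, which are counts of reads, as the authors deposited them. Per the labels' protocols, small RNA of 18 to 30 nt was gel purified and amplified for 12 cycles, other RNA classes were filtered out, and the remaining reads were set against miRBase release 19. Neither the aligner nor the mismatches allowed are stated there.

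Scores were summed over the hairpins of each mature name and scaled to 1000000 per column, and no count model was used. Reads were recounted against the table's mature sequences with no mismatch: 16 nt or more matched, the read's start no more than 2 nt from the annotated start, at most 5 unmatched 3' bases, the longest match taken and ties divided. For the pair, a read counted for the member whose base it had at position 18. The lists hold 6277096 reads (HSC), 6554086 (imDC), 6572858 (maDC) and 4904897 (DCreg), which gives narrow counting intervals, while the spread between samples is unknown; the floor for a count of 0 is 3. Ranks over miRNAs and folds are descriptions, with no test. The longest-match recount and TMM were tested on simulated data, with reads made without substitutions. The position 18 rule for the pair and the other scalings were not.

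The miRNAs named are the pair, their other arms, a list of 16 miRNAs linked to TLR and NF-kB signalling, the 5 nearest profiles of each member and the cell type markers; let-7e-5p and miR-222-3p are also named for their read ends and were chosen for that after their values were seen. The members and lists were chosen with earlier results of these data known. Sequences and hairpins are those of RefSeq (766 of 1078 miRNA names matched), and gene positions those of GENCODE on GRCm38; the deposited files used here hold no coordinates. Alternatives covered the scaling, the source of the values, the pseudocount, the minimum level and the recount rules. Python 3.11.15, numpy 2.4.6, scipy 1.17.1 and matplotlib 3.10.9 were used.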

Additional observations from a re-analysis of the deposited data

How the results depend on the processing

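No paired analysis was possible because each cell type has 1 library; for the same reason no library could be left out. No result reversed a call. Of the values recomputed under the alternatives, 208 stayed within the bounds, 65 moved, 1 gained a call and 2 lost theirs. The log2 ratio of miR-146b-5p in maDC against imDC was 0.15 by TMM and 0.30 by median-of-ratios size factors. In DCreg against maDC its log2 ratio reached the call with all reads as the total (-1.18), and in DCreg against imDC it lost the call by TMM (-0.63) and median-of-ratios (-0.57). For miR-146a-5p the log2 ratio in DCreg against imDC, 0.01 in the main analysis, was -0.51 with all reads as the total, -0.47 by recounted reads and -0.48 with both bases. In DCreg against HSC it was 0.38 by TMM and 0.14 by median-of-ratios. TMM moved the median log2 ratio of all tested miRNAs by 0.21 in imDC against HSC, 0.55 in maDC against imDC, 0.10 in DCreg against maDC, 0.65 in DCreg against imDC, 0.76 in maDC against HSC and 0.86 in DCreg against HSC; median-of-ratios moved it by -0.09 to 0.72, all reads as the total by -0.53 to 0.25 and the recount by -0.56 to 0.53. Without a minimum level the number of miRNAs called was 397 in imDC against HSC, 377 in maDC against imDC, 323 in DCreg against maDC, 486 in DCreg against imDC, 445 in maDC against HSC and 449 in DCreg against HSC, against 102, 87, 67, 121, 127 and 132, as more miRNAs are then tested. The TLR and NF-kB list had 4 members called in maDC against imDC by the recount with position 18 and 4 with both bases, against 2. Of the 5 nearest profiles, 3 were shared at a minimum of 50 ppm and 3 at 500 ppm for miR-146a-5p, and 3 at 500 ppm for miR-146b-5p.

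The miR-146b-5p to miR-146a-5p ratio was 3.96 in HSC and 80.7 in imDC, then 219 in maDC and 32.8 in DCreg by the deposited values. With both differing bases matched it was 32.9 in imDC, 75.5 in maDC and 17.6 in DCreg. With no unmatched 3' bases it was 0.951 (HSC), 13.3 (imDC), 14.0 (maDC) and 3.87 (DCreg), so miR-146a-5p then had more reads than miR-146b-5p in HSC; that alternative also drops reads that continue along the hairpin, the leading form of miR-146b-5p. The level of miR-146a-5p in HSC, imDC, maDC and DCreg was 1561, 1105, 309 and 1115 ppm by the deposited values, 971, 870, 195 and 625 ppm with both bases, 359, 399.9, 81.5 and 283 ppm with no unmatched 3' bases, and 839, 750.2, 179.5 and 540.1 ppm of all reads. With 1 mismatch allowed it was 1075 ppm in HSC, 991 ppm in imDC and 711 ppm in DCreg. The level of miR-146b-5p was 6182, 89225, 67585 and 36546 ppm by the deposited values, 341, 5299, 1141 and 1095 ppm with no unmatched 3' bases, 1786, 30068, 15250 and 11506 ppm with 1 mismatch, and 1408, 23224, 12429 and 8876 ppm of all reads, in the same order of libraries; with both bases it was 28605 ppm in imDC. Where no construction of the alternative shows it, the cause was not tested. Depth limits the other arms, with 0 reads of miR-146a-3p and 1 to 81 of miR-146b-3p a library.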

Other observations

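Reads of miR-146b-5p that span the 22 bases with a single substitution made up 7.55% of such reads in HSC and 5.14% in imDC, then 4.91% in maDC and 7.25% in DCreg. The substitution that turns the base read at position 18 into that of miR-146a-5p, A18G, stood at 21.4 per 10000 unchanged reads in HSC (18 reads) and 9.28 in imDC (136 reads), 7.83 in maDC (62 reads) and 8.25 in DCreg (34 reads). The 6 other A positions changed to G at a median of 5.36 per 10000 in HSC and 4.06 in imDC, then 3.28 in maDC and 5.46 in DCreg, and at a maximum of 36.9, 7.64, 7.95 and 5.82. The commonest substitution was U22A at the last annotated base, with 238 per 10000 (HSC), 85.7 (imDC), 149 (maDC) and 346 (DCreg). In DCreg these were 1427 of the 3222 reads with a single substitution. By the rule for read ends, reads with U22A also count as unmatched tails that start with A, so these shares overlap.

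Position 24 of miR-146b-5p, past the annotated end, was read only where all earlier bases of the read match the hairpin. The base there was the U of the hairpin in 61.9% of such reads in HSC and 58.9% in imDC, then 65.6% in maDC and 66.1% in DCreg. It was G in 33.5%, 34.1%, 23.2% and 25.4% of them in the same order, and A in 3.86%, 6.38%, 10.2% and 7.62%. The reads of miR-146b-5p took 104 distinct sequences in HSC and 370 in imDC, then 351 in maDC and 246 in DCreg, and those of miR-146a-5p 102, 104, 66 and 91; the number of reads differs between these, and the dependence on it was not tested.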
